A study of Mus musculus with 32 samples.

Results

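The genes described here are 7 genes of thyroid hormone handling, *Dio2*, *Dio3*, *Slco1c1*, *Crym*, *Thra*, *Thrb* and *Trhde*, taken by their symbols from the 27998 genes counted in cells dissociated from the median eminence (ME) of mice. They were chosen by name with earlier results of these data known, and the rule itself uses no measured value. The ME is the floor of the third ventricle, where hypothalamic axons release hormones into the portal blood of the pituitary. The animals were 5 male C57B/L6 mice fasted overnight for 16 h and 5 refed normal chow for 1 h after such a fast, at postnatal days 40 to 47. ME tissue was combined by condition, dissociated in papain, sorted as nucleated cells with intact membranes, and split over 2 droplet libraries per condition, so each condition rests on 1 pool of animals. All cells lie in 1 matrix whose barcodes end in a number from 1 to 4. No label ties these numbers to a library or a condition, so refed and fasted cells were not compared, the matrix was treated as 1 sample, and values are given for each barcode number as they stand. No test between cell types was made, and the 95% intervals below cover counting error only.

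Thyroxine, the main product of the thyroid, crosses membranes through carrier proteins and is a prohormone. The type 2 deiodinase, made from *Dio2*, removes an outer-ring iodine to form the active hormone triiodothyronine, and the type 3 deiodinase, made from *Dio3*, removes an inner-ring iodine and inactivates both hormones. Tanycytes, the radial glia that line the floor of the third ventricle, are a known site of both enzymes and of a membrane enzyme that degrades thyrotropin-releasing hormone (TRH), and they stand between the ventricle, the portal capillaries and the terminals of TRH neurons.

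Both deiodinases are selenoproteins, in which an in-frame TGA codon of the active site is read as selenocysteine and not as a stop. Both genes lie on chromosome 12 in GRCm38. *Dio2* spans chr12:90724552-90738438 on the minus strand in 2 exons, and *Dio3* spans chr12:110279068-110281097 on the plus strand in 1 exon. The stretches of coding sequence around this codon are shown because they are what the 2 enzymes of opposite action share. The codon, in capitals, is codon 130 of 266 in *Dio2* (chr12:90729793-90729855, minus strand) and codon 170 of 304 in *Dio3* (chr12:110279709-110279771, plus strand), with 30 bases on either side.
Dio2: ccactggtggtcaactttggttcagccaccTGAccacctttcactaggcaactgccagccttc
Dio3: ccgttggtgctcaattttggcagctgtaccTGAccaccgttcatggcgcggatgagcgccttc
The aligned stretches had 41 of 63 bases in common. *Dio2* carries a further in-frame TGA, at codon 263.

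The 250 bases before the start of each deiodinase gene are shown next, because the levels of the 2 genes were highest in different tanycyte clusters. The sequences and start sites are those of RefSeq on GRCm38.p6, whose starts differ from the ends of the gene spans above, and capitals mark every match to the motifs searched on both strands, which were the homeodomain core TAATTA, the Nkx2-1 core CAAGTG, the cAMP response element (CRE) half-site TGACG and its palindrome TGACGTCA, the nuclear receptor half-site AGGTCA, the GC box GGGCGG and the TATA box TATAAA. The *Dio2* stretch lies at chr12:90739039-90739288 on the minus strand and the *Dio3* stretch at chr12:110278980-110279229 on the plus strand.
Dio2: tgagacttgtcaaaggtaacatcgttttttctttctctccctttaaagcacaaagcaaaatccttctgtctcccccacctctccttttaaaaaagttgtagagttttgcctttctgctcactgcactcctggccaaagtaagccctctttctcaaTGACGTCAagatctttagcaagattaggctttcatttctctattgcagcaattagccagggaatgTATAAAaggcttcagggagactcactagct
Dio3: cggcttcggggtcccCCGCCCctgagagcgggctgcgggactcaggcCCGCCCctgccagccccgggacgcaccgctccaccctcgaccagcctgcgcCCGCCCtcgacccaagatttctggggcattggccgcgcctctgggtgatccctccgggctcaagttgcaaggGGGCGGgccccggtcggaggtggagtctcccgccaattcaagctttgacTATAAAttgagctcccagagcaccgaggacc
The *Dio2* stretch held the CRE palindrome beginning 95 bases before the start, and a TATA box beginning 30 bases before it. The palindrome, which holds the half-site on both strands, was present in 1.55% of 32817 promoters of the same length, and the TATA box in 12.4%. The *Dio3* stretch held 4 GC boxes, a motif present in 32.7% of promoters, and a TATA box beginning 31 bases before the start. Its GC content was 69.6%, with 21 CpG dinucleotides, against 41.6% and 2 in *Dio2* and a median of 52.4% and 6 over all promoters. Entries were found for 5 of the 7 genes. Those of *Slco1c1* and *Trhde* held none of these motifs. A match is a description of the letters and not evidence of a bound site.

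The matrix held 5982 cells and 29288898 unique molecular identifiers (UMIs, each standing for 1 captured transcript), with a median of 3837 UMIs and 1853 genes per cell. Barcode numbers 1 to 4 held 1642, 1493, 1359 and 1488 cells with median UMIs of 3518 to 4057, and 21 barcodes occurred under 2 or more numbers. Clusters were named from marker lists, and 5919 cells fell into 13 named types, from 75 mural-like to 1634 tanycyte-like cells. Median depth ran from 2245.5 UMIs in endothelial-like to 13412 in neuron-like cells. Of 8 tanycyte markers, 7 were highest in tanycyte-like cells, with *Rax* at 634 counts in 1000000 UMIs (CPM). The same markers named these clusters, so the count describes the naming and is no separate check of it. The cluster named pars tuberalis-like (88 cells) also held *Pomc* among its leading genes and scored 0.474 on the neuron list, so its values are a mixture. When clusters were made without the 7 genes and other genes of the pathway, only 32 cells were named pars tuberalis-like. A cluster of 56 cells led by *Pomc* was then named neuron-like. CPM here is the sum of a gene's UMIs over the cells of a type for each 1000000 UMIs of those cells. Because the chemistry reads the 3′ end and lengths were not corrected for, CPM was compared between cell types for 1 gene and never between genes.

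Of the 7 genes, *Dio2*, *Dio3* and *Crym* had their highest CPM in tanycyte-like cells, *Slco1c1* in endothelial-like, *Thra* in differentiating oligodendrocyte progenitor (diffOPC)-like, *Thrb* in neuron-like and *Trhde* in ependymocyte-like cells. Total counts differed widely, from 155 UMIs of *Dio2* in 135 cells and 190 of *Trhde* in 164 cells to 9414 of *Thra* in 3656 cells. Against all other named cells together, 2 of the 7 genes were at least 4-fold higher in tanycyte-like cells, *Crym* at 21.1-fold and *Dio3* at 4.32-fold, with 10 CPM added to both sides. The share of all 13905 genes with at least 50 UMIs that passed the same fold was 0.59%. No member was at least 4-fold lower, against 2.4% of all genes. The median log2 ratio of the 7 genes was 1.00 and that of all genes tested was -0.08. The added 10 CPM shrinks the ratio of sparse genes, and with 1 CPM added 4 of the 7 genes and 286 of all genes passed.

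**Figure D1:**
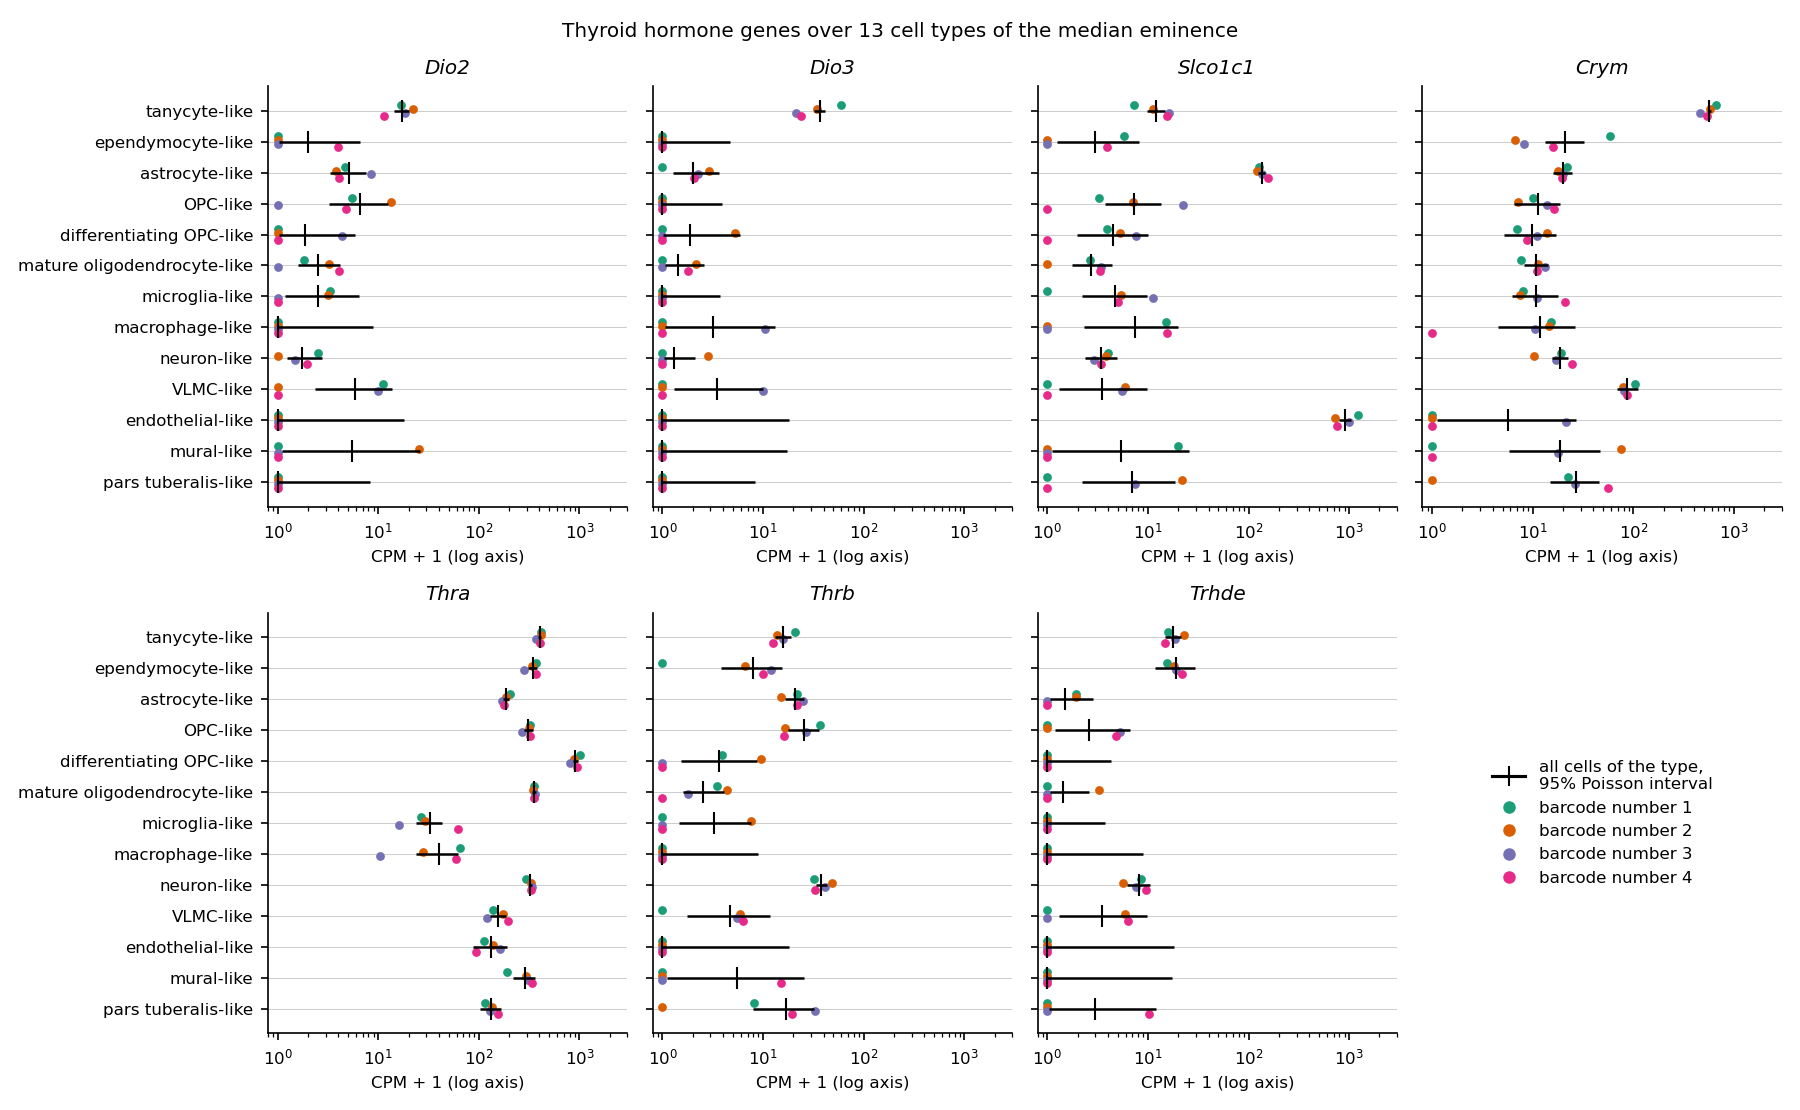
CPM plus 1 (log axis) of the 7 genes in the 13 named cell types; vertical ticks with black bars are all cells of a type with the 95% Poisson interval, and coloured points are the 4 barcode numbers. *Dio3* and *Crym* stood apart in tanycyte-like cells and *Slco1c1* in endothelial-like and astrocyte-like cells, whereas *Thra* was counted in every type and lowest in microglia-like and macrophage-like cells.

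*Dio2*, which makes the activating enzyme, was counted in tanycyte-like cells at 16.1 CPM (95% interval 13.2 to 19.3), 71.6% of all its UMIs. By barcode number the values were 15.8, 21.3, 17.4 and 10.3 CPM. The next type, OPC-like cells, stood at 5.52 CPM (2.22 to 11.4), and its 4 barcode numbers, from 0 to 12.3 CPM, overlapped those of tanycyte-like cells although the pooled intervals did not. Astrocyte-like cells, another reported site of type 2 deiodinase, stood at 4.08 CPM (2.33 to 6.62), with 2.80 to 7.55 CPM over the barcode numbers, all below the lowest tanycyte value. The intervals of 2 small types overlapped that of tanycyte-like cells. These were mural-like cells at 4.45 CPM (0.113 to 24.8), from 1 UMI, and endothelial-like cells at 0 CPM (0 to 17.2). A *Dio2* UMI was found in 5.81% of tanycyte-like cells (4.73 to 7.06), against 1.13% of astrocyte-like, 0.901% of mature oligodendrocyte (MOL)-like and 0.498% of microglia-like cells, whose median depths were 4102, 2665, 6150 and 3079.5 UMIs. With every cell thinned to 1000 UMIs the tanycyte share was 0.979% and the astrocyte share 0.493%, and their intervals overlapped. Among the 95 positive tanycyte-like cells, 82 held 1 UMI and none more than 3. *Dio2* was thus a sparse count in single cells. Its annotated transcript of 5815 bases has a 3′ untranslated region of 4860 bases. A long noncoding gene, *Gm26512*, overlaps *Dio2* by 238 bases on the other strand, and whether strand was used in the counting is not stated.

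*Dio3*, which makes the inactivating enzyme and lies in an imprinted region, had 246 of 258 UMIs (95.3%) in tanycyte-like cells. Its level there was 35.6 CPM (31.3 to 40.3), 14.5 times that of the next type, VLMC (vascular and leptomeningeal cell)-like cells at 2.46 CPM, which rests on 2 UMIs. By barcode number, tanycyte-like cells stood at 58.3, 33.4, 20.2 and 23.0 CPM, and the highest value of any other type under any number was 9.43 CPM. No *Dio3* UMI was found in 402 microglia-like cells. This allows up to 0.746% of such cells to hold a UMI at their median depth of 3079.5 and says nothing of expression below capture. Against that floor of 3 counts (2.24 CPM) the tanycyte-like level was 15.9-fold higher, although the 95% interval in microglia-like cells reached 2.76 CPM. The spread over the barcode numbers was wider than for *Dio2*, and a few cells carried it. Of 73 positive tanycyte-like cells, 40 held 1 UMI and 18 held 5 or more, up to 21, and these 18 cells held 65.4% of the tanycyte UMIs. Barcode number 1 held 11 of the 18. When they were left out, a choice made after the counts were seen, the 4 values became 11.4, 13.5, 9.85 and 14.996 CPM and the level of all tanycyte-like cells 12.5 CPM. The share of positive cells differed less over the numbers, at 5.27, 4.06, 3.49 and 4.74%. Because the barcode numbers cannot be tied to fasted or refed mice, no part of this spread can be set beside the feeding state.

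**Figure D2:**
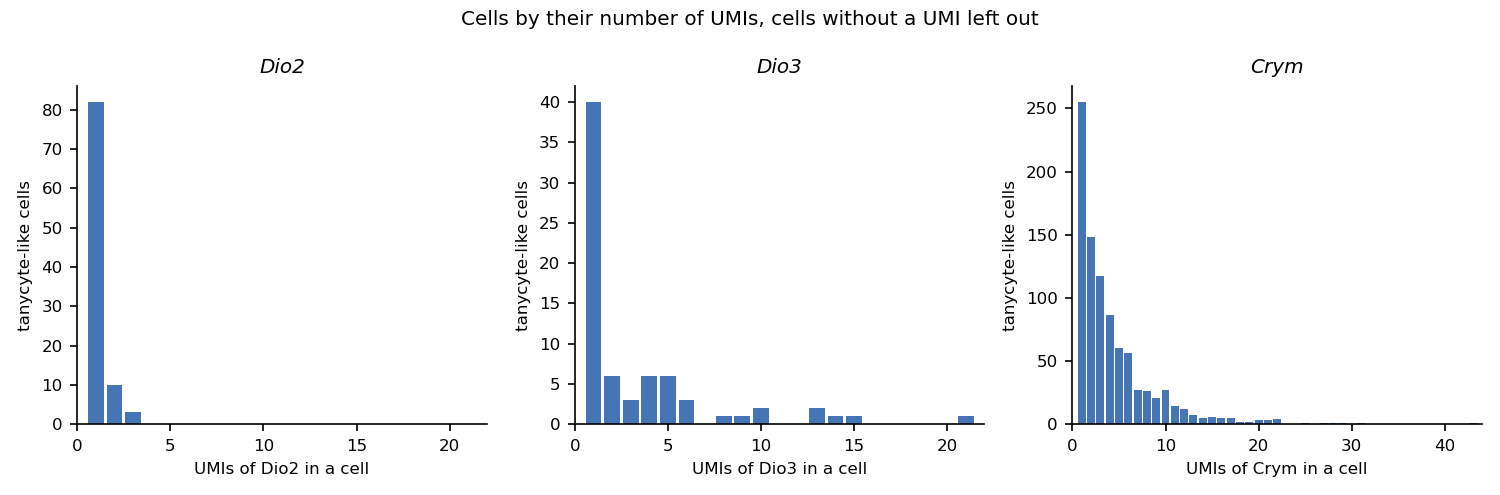
Number of tanycyte-like cells (vertical axis) by the UMIs of *Dio2*, *Dio3* or *Crym* that each held (horizontal axis), cells at 0 left out. *Dio2* ended at 3 UMIs per cell, *Dio3* had 40 cells at 1 UMI and a tail to 21, and *Crym* fell off evenly to 43.

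The 2 deiodinases were highest in different clusters of tanycyte-like cells. Clusters were made again with the 7 genes and all pathway genes left out, which gave 4 tanycyte-like clusters. They are called here by a leading gene that took part in the clustering. The *Cpne5* cluster held 311 cells, the *Kctd14* cluster 765, the *Tgfb2* cluster 445 and the *Scn7a* cluster 113. The *Scn7a* cluster, with *Col25a1* at 850 CPM, *Scn7a* at 1025 and *Adm* at 253, was beta-2 tanycyte-like, the class known to line the floor above the portal capillaries. *Rax* was counted in all 4, at 423, 907, 302 and 709 CPM in this order, against 49.7 CPM in astrocyte-like and 18.0 in ependymocyte-like cells. All genes below were measured in the same cells that were clustered, so the cluster values are a description.

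*Dio3* was at 183 CPM (159 to 210) in the *Cpne5* cluster and at 3.81, 8.97 and 8.32 CPM in the *Kctd14*, *Tgfb2* and *Scn7a* clusters. The *Cpne5* cluster held 19.0% of tanycyte-like cells and 85.8% of their *Dio3* UMIs, and its barcode numbers stood at 354, 205, 82.0 and 97.2 CPM, each above the 37.2 CPM that was the highest value of the other clusters. Although left out of the clustering, *Dio3* was the gene with the largest ratio in this cluster. The other 3 clusters rest on 12, 18 and 5 *Dio3* UMIs. *Dio2* had 1 UMI in the *Cpne5* cluster (0.868 CPM, 0.022 to 4.83), 2.49 CPM in the *Tgfb2* cluster, 23.8 CPM (18.8 to 29.9) in the *Kctd14* cluster and 48.2 CPM (32.3 to 69.3) in the beta-2-like cluster. The *Kctd14* cluster held 68.2% of the tanycyte *Dio2* UMIs and 46.8% of tanycyte-like cells, and the beta-2-like cluster 26.4% and 6.92%. The barcode numbers of the beta-2-like cluster (34.8, 87.4, 37.2 and 29.8 CPM) all lay above those of the *Kctd14* cluster (27.7, 23.6, 26.6 and 16.02 CPM). Median depth in the 4 clusters was 3518, 4043, 4275 and 5258 UMIs, lowest where *Dio2* was lowest, and the part of depth in these levels was not tested. With the 7 genes kept in the clustering, *Dio3*, then itself among the variable genes used, had 85.8% of its tanycyte UMIs in 1 cluster. That cluster was larger, with 711 cells or 43.5% of tanycyte-like cells. *Dio2* had 86.5% of its tanycyte UMIs in another, of 596 cells or 36.5%.

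The naming of the *Dio3*-rich cells rested on the resolution of the clustering. The *Cpne5* cluster had none of the 8 tanycyte markers among its 10 leading genes and scored 0.358 on the tanycyte list, with 5 markers raised, against 0.095 on the next list. At a Leiden resolution of 2, 343 of the tanycyte-like cells, holding 213 of the 246 *Dio3* UMIs, lost their name under the rule used, and *Dio3* in the cells still named tanycyte-like was 5.96 CPM. Those 343 cells had *Rax* at 245 CPM and *Gpr50* at 138 CPM, against 634 and 182 CPM in all tanycyte-like cells. The alpha tanycyte markers *Cd59a*, *Slc17a8* and *Nr2e1* stood at 166, 70.5 and 34.9 CPM, against 94.6, 20.3 and 35.01 CPM. All 7 ependymocyte markers were counted, from *Hdc* at 42.9 to *Rarres2* at 837 CPM, and *Tmem212* stood at 207 CPM against 67.0 in all tanycyte-like and 2659 CPM in ependymocyte-like cells. A cluster of 116 of the cells scored 0.357 on the tanycyte and 0.269 on the ependymocyte list. *Agt*, a defining astrocyte marker, was at 235 CPM against 4479 CPM in astrocyte-like cells. These 343 cells, from clusters of 227 and 116, were not the same set as the *Cpne5* cluster. In the *Cpne5* cluster *Tmem212*, *Rarres2* and *Agt* stood at 7.81, 246 and 74.6 CPM, below the 67.0, 549 and 104 CPM of all tanycyte-like cells. *Hdc* and the astrocyte markers *Ntsr2* and *Aldh1l1* lay above, at 24.3, 93.7 and 9.55 CPM against 21.4, 86.4 and 7.52 CPM. The part of these other markers in the *Dio3* level was not tested.

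**Figure D3:**
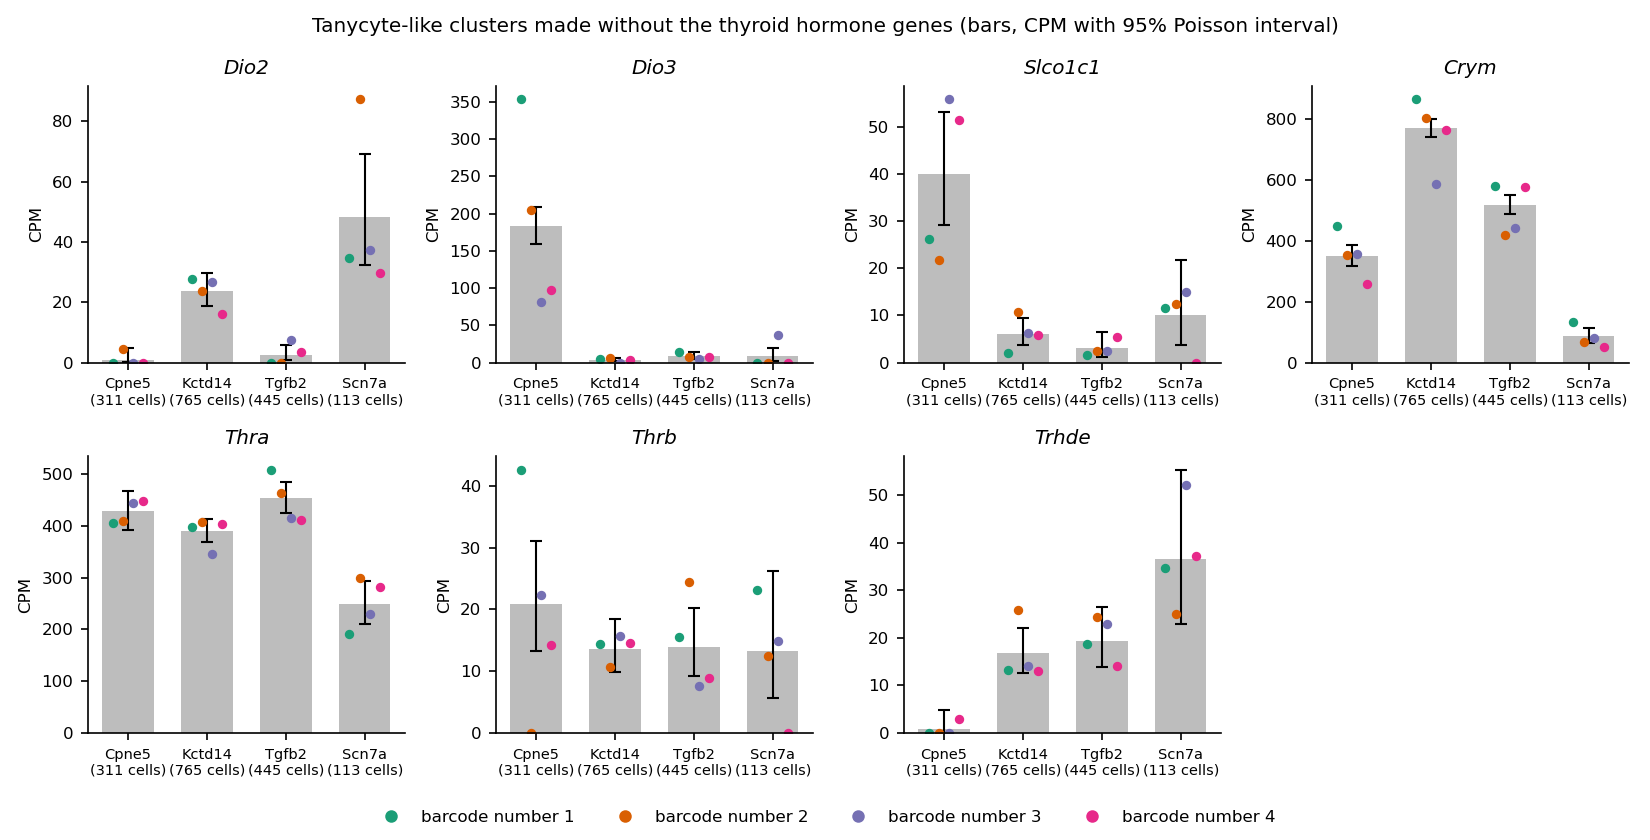
CPM (vertical axes, linear from 0) in the 4 tanycyte-like clusters made without the thyroid hormone genes; bars are all cells with the 95% Poisson interval and points are the 4 barcode numbers. *Dio3* and *Slco1c1* were highest in the *Cpne5* cluster, *Dio2* and *Trhde* in the *Scn7a* cluster and *Crym* in the *Kctd14* cluster.

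A single cell rarely held both enzymes. In tanycyte-like cells 1 of 1634 held a UMI of both *Dio2* and *Dio3*, where the product of the 2 shares gives 4.24 cells. After thinning to 1000 UMIs there was no such cell and the product gave 0.323, so at this depth an excess or a lack could not be read. A UMI of neither enzyme was found in 89.8% of tanycyte-like cells. The 94 cells with *Dio2* alone and the 72 with *Dio3* alone, groups set up after the values were seen, differed in some markers of tanycyte classes. *Col25a1*, a beta-2 marker, was at 417 CPM (361 to 479) beside *Dio2* and at 62.7 CPM (38.8 to 95.9) beside *Dio3*. *Cd59a*, an alpha marker, was at 21.1 CPM (10.1 to 38.7) and 245 CPM (195 to 304). Cells with neither enzyme lay between, at 141 CPM for *Col25a1* and 92.2 CPM for *Cd59a*. *Slc17a8*, the vesicular glutamate transporter of the alpha list, stood at 10.5 CPM in the first group and 98.6 CPM in the second, against 16.7 CPM in cells with neither. The intervals of the alpha marker *Nr2e1* overlapped between the first and second group, at 27.4 and 11.9 CPM.

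*Slco1c1* (chr6:141524368-141570177, plus strand, 15 exons), which makes the thyroxine carrier OATP1C1, was highest in endothelial-like cells at 912 CPM (788 to 1049), with 1218, 717, 995 and 749 CPM over the barcode numbers. Astrocyte-like cells stood at 134 CPM (122 to 145), with 126, 122, 135 and 155 CPM, and tanycyte-like cells at 11.1 CPM (8.79 to 13.9), with 6.22, 10.3, 15.3 and 14.4 CPM. These 3 levels did not overlap in any barcode number, and the endothelial level was 6.83 times the astrocyte level and 81.8 times the tanycyte level. Since endothelial-like cells were 84 of the cells and astrocyte-like cells 1420, astrocytes still held 61.4% of all *Slco1c1* UMIs and endothelium 23.0%. A UMI was found in 75.0% of endothelial-like (64.4 to 83.8), 29.4% of astrocyte-like and 4.04% of tanycyte-like cells. The shares in microglia-like and MOL-like cells were 1.24 and 1.201%, and the highest of the other types was 3.41%, from 3 pars tuberalis-like cells. The tanycyte CPM lay above those of neuron-like (2.42, 1.38 to 3.93) and MOL-like cells (1.73, 0.749 to 3.42) without overlap of the intervals, but overlapped those of smaller types such as macrophage-like cells (6.46, 1.33 to 18.9). Thinned to 1000 UMIs, the shares were 51.2, 12.04 and 1.04%. Within tanycyte-like cells, 59.7% of the *Slco1c1* UMIs lay in the *Cpne5* cluster, at 39.9 CPM (29.2 to 53.2), with 21.8 to 55.9 CPM over the barcode numbers. The beta-2-like cluster stood at 9.98 CPM (3.66 to 21.7). *Dio3* and *Slco1c1* were found together in 8 tanycyte-like cells against 2.95 from the product of their shares. All 8 lay in the *Cpne5* cluster, where the product within the cluster gives 5.86 cells, a ratio of 1.36.

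Other carriers of thyroid hormone were measured as well. *Slco1a4*, a wide-specificity organic anion transporter of the blood-brain barrier, was at 4442 CPM in endothelial-like cells with no other type above 14.8 CPM. *Slc7a5*, the large neutral amino acid transporter LAT1, reached 1735 CPM in the same cells. *Slco2b1*, another organic anion transporter, reached 275 CPM in microglia-like cells. *Slc7a8*, the amino acid transporter LAT2, was also highest there, at 71.0 CPM. Of the 8 carriers described, 7 had at least 50 UMIs, and in tanycyte-like cells none of these was at least 4-fold higher than in other cells and 1, *Slco1a4*, was at least 4-fold lower, against 0.59% and 2.4% of all genes. By its pattern over the 13 types, *Slco1c1* was most like *Tfrc* (the transferrin receptor), *Slc7a5* and *Ccdc141*, with Pearson r of 0.937, 0.932 and 0.896 over log2 levels of 13 types among 7761 genes with at least 500 UMIs. All points of these correlations come from 1 matrix.

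*Crym* (chr7:120186380-120202111, minus strand, 8 exons) makes mu-crystallin, a cytosolic protein that binds triiodothyronine. It was the member with the largest tanycyte ratio, at 567 CPM (550 to 585) and 91.0% of all its UMIs in tanycyte-like cells, with 657, 573, 457 and 543 CPM over the barcode numbers. VLMC-like cells were next at 86.2 CPM (67.2 to 109), with 78.5 to 102 CPM, a 6.58-fold step, and all other types lay at 25.8 CPM or below. A *Crym* UMI was found in 54.9% of tanycyte-like cells (30.5% after thinning) and 3.23% of microglia-like cells (0.746%). VLMC-like cells stood at 20.9% (8.21%). The highest single cell held 43 UMIs.

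*Crym* was not even over the tanycyte clusters. It stood at 770 CPM (740 to 801) in the *Kctd14* cluster, 519 in the *Tgfb2* cluster, 351 in the *Cpne5* cluster and 86.5 CPM (64.6 to 113) in the beta-2-like cluster, and the intervals of these 4 did not overlap. The beta-2-like cluster thus had the highest *Dio2* and the lowest *Crym*, at 52.1 to 133 CPM over its barcode numbers against 588 to 865 CPM in the *Kctd14* cluster. The 94 cells with *Dio2* alone stood at 602 CPM of *Crym* (535 to 676) and the 72 with *Dio3* alone at 299 CPM (243 to 363). The 18 cells with at least 5 *Dio3* UMIs stood at 90.1 CPM (41.2 to 171). Cells with neither enzyme stood at 580 CPM. By pattern over the types, *Crym* was most like *Col23a1*, *Mest* and *Rspo3*, with r of 0.943, 0.900 and 0.877, and *Col23a1* was itself among the tanycyte markers used for naming.

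*Thra* makes thyroid hormone receptor alpha and the non-binding splice form alpha 2, which counts summed by gene do not tell apart. It was counted in all 13 types and was highest in diffOPC-like cells at 909 CPM (854 to 966), with 1008, 875, 801 and 936 CPM. Tanycyte-like cells followed at 403 CPM (388 to 418), with 372 to 416 CPM, so diffOPC-like cells stood 2.25-fold higher without overlap. MOL-like (352), ependymocyte-like (341), neuron-like (324), OPC-like (309) and mural-like cells (285 CPM) followed, each overlapping its neighbour. Astrocyte-like cells stood at 185 CPM, VLMC-like at 155, pars tuberalis-like at 131 and endothelial-like at 130 CPM. Macrophage-like and microglia-like cells were lowest at 38.7 and 31.4 CPM, and their intervals overlapped. Over the tanycyte clusters *Thra* was lowest in the beta-2-like cluster, at 250 CPM (211 to 293) against 391 to 454 CPM in the other 3, and its barcode numbers, from 192 to 300 CPM, all lay below the 345 CPM that was the lowest value elsewhere.

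Along the oligodendrocyte lineage *Thra* was highest in the middle stage. OPC-like cells stood at 309 CPM (279 to 341), diffOPC-like cells 2.94-fold higher and MOL-like cells at 352 CPM (335 to 369), 2.59-fold below the middle stage. Under all 4 barcode numbers the diffOPC value lay above both others, which reached 321 and 359 CPM. The median diffOPC-like cell held 7 *Thra* UMIs, 91 of 129 held at least 5 and 4 held none. DiffOPC-like cells were also deeper, with a median of 8604 UMIs, and thinned to 1000 UMIs their share with *Thra* was 57.4% (48.4 to 66.0), against 27.3% in OPC-like and 30.9% in MOL-like cells. *Thrb* was highest in the first stage, at 24.5 CPM (16.6 to 34.7) in OPC-like, 2.64 CPM in the middle stage and 1.52 CPM in the mature stage. *Klf9*, a direct target of thyroid hormone receptors, stood at 87.6 CPM (72.0 to 105), 134 CPM (113 to 157) and 170 CPM (159 to 183) over the 3 stages, although the barcode numbers of neighbouring stages overlapped. *Mbp*, the myelin basic protein gene and another known target, stood at 98.6, 7837 and 8463 CPM. By pattern over the types, *Thra* was most like *Mrpl58*, *Nabp2* and *Ube2e2*, with r of 0.945, 0.931 and 0.912. The last 1075 bases of *Thra* on chr11:98740638-98769006 overlap *Nr1d1*, the gene of the clock protein REV-ERB alpha, on the opposite strand. *Nr1d1* was at 45.9 CPM in tanycyte-like and 107 CPM in ependymocyte-like cells, against 9.69 CPM in the diffOPC-like cells where *Thra* was highest.

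**Figure D4:**
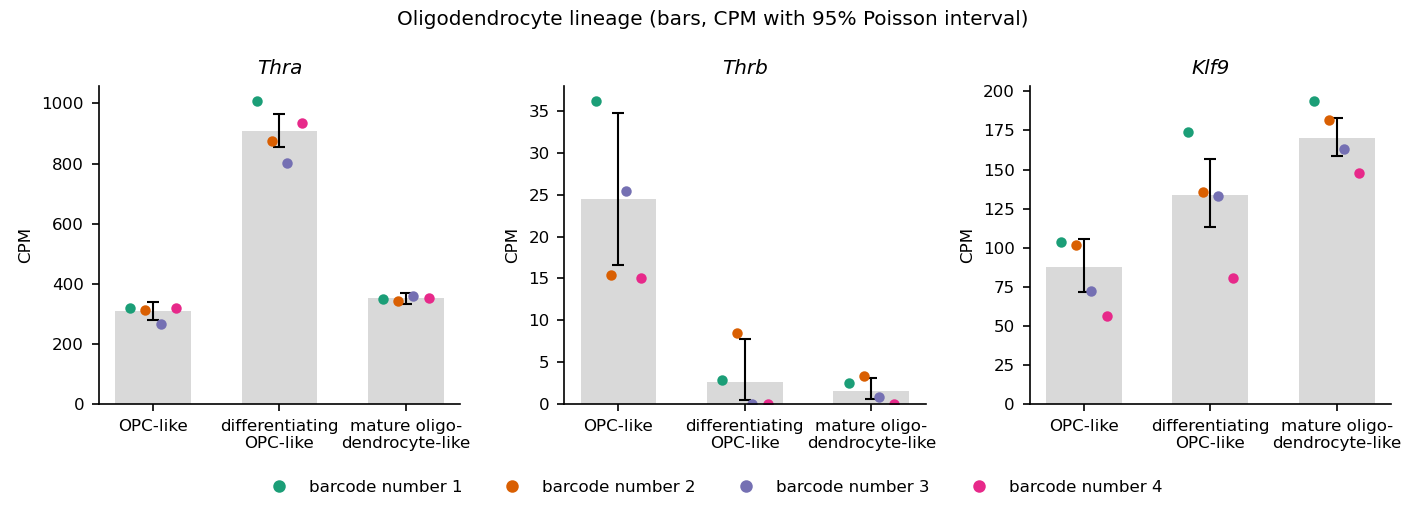
CPM (vertical axes, linear from 0) of *Thra*, *Thrb* and *Klf9* in OPC-like, diffOPC-like and MOL-like cells; bars are all cells with the 95% Poisson interval and points are the 4 barcode numbers. *Thra* was highest in the middle stage under every barcode number, *Thrb* was highest in OPC-like cells and *Klf9* lay between 87.6 and 170 CPM.

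*Thrb* (chr14:17660261-18038090, plus strand) makes thyroid hormone receptor beta, whose beta 2 form is known in TRH neurons and the pituitary. It was highest in neuron-like cells at 36.9 CPM (32.4 to 41.9), which held 49.8% of its UMIs, with 31.3, 47.4, 39.98 and 32.1 CPM. OPC-like cells were next at 24.5 CPM (16.6 to 34.7), and both their interval and their barcode numbers, up to 36.2 CPM, overlapped those of neuron-like cells. Astrocyte-like cells (19.6, with 14.02 to 23.9 over the barcode numbers), the mixed pars tuberalis-like cluster (15.9) and tanycyte-like cells (14.9 CPM, with 11.5 to 19.6) followed. Each overlapped the one before. The neuron level was 2.48 times the tanycyte level without overlap in any barcode number. A *Thrb* UMI was found in 25.6% of neuron-like cells and 5.81% of tanycyte-like cells. Neuron-like cells were the deepest, and at 1000 UMIs per cell these shares were 3.15% (1.81 to 5.06) and 1.16% (0.701 to 1.81). Among neurons, *Thrb* stood at 47.7 CPM (41.8 to 54.2) in the cluster led by *Sst*, *Gal* and *Tac2*, at 11.05 CPM (4.05 to 24.0) in the cluster led by *Vip* and *Avp*, and at 2.63 CPM (0.542 to 7.68) in the cluster led by *Agrp* and *Npy*. *Thra* varied less among these clusters, at 355, 324 and 194 CPM. Of the tanycyte-like cells, 78.5% held a UMI of either receptor and 4.53% of both.

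*Trhde* (chr10:114398823-114802307, minus strand, 19 exons) makes the TRH-degrading ectoenzyme, also called pyroglutamyl peptidase II, which cleaves TRH outside the cell. It was found in the 2 ventricle-lining types, at 18.0 CPM (10.7 to 28.5) in ependymocyte-like cells and 16.8 CPM (13.9 to 20.1) in tanycyte-like cells, which did not differ beyond counting error. By barcode number the values were 14.5, 17.0, 18.1 and 20.7 CPM in the first and 14.8, 21.9, 17.4 and 13.8 CPM in the second. Neuron-like cells stood at 7.11 CPM (5.23 to 9.46), with 4.64 to 8.61 CPM, below every value of both types. Tanycyte-like cells held 61.1% of all *Trhde* UMIs and neuron-like cells 24.7%. No UMI was found in microglia-like cells, and against 3 counts there the tanycyte level was at least 7.49-fold higher. Astrocyte-like cells stood at 0.510 CPM (0.062 to 1.84). Over the tanycyte clusters *Trhde* had 1 UMI in the *Cpne5* cluster (0.868 CPM), 16.8 CPM (12.6 to 22.03) in the *Kctd14* cluster, 19.4 CPM (13.8 to 26.6) in the *Tgfb2* cluster and 36.6 CPM (22.9 to 55.4) in the beta-2-like cluster. Like *Dio2* it was lowest in the *Cpne5* and highest in the beta-2-like cluster, but the *Tgfb2* cluster held 33.9% of its tanycyte UMIs and 4.55% of those of *Dio2*. *Dio2* and *Trhde* met in 10 tanycyte-like cells against 5.93 from the product of the shares. *Dio2*-positive cells had a median of 5161 UMIs and the others 4060, and the part of depth in this count was not tested, since thinning to 1000 UMIs left an expected 0.215 cells and none was seen. Antisense genes overlap *Trhde* (*4930473D10Rik* and *Gm15723*) and *Thrb* (*Gm48321*, with the pseudogene *Gm48320* and the small RNA *Gm24140*), and strand use in the counting is not stated.

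Most cells of the tanycyte class held UMIs of 1 or 2 of the 7 genes. None had a UMI in 153 of the 1634 cells, 596 cells held UMIs of 1 gene, 688 of 2, 172 of 3, 24 of 4 and 1 of 5. *Crym* and *Thra*, the members of highest coverage, met in 716 cells against 692 from the product of the shares, a ratio of 1.03.

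Of 35 further genes of the pathway, 30 had at least 50 UMIs. In tanycyte-like cells 1 of these was at least 4-fold higher than in other cells and 4 at least 4-fold lower, beside 0.59% and 2.4% of all genes, with a median log2 ratio of -0.44 against -0.08 over all genes. *Thrsp* and *Tshr* were the 2 with their highest CPM in tanycyte-like cells. *Thrsp*, the lipogenic gene named for its response to thyroid hormone, was at 658 CPM (639 to 677), 3.38 times the astrocyte-like level. *Dio1*, the hepatic and renal deiodinase, had no UMI, and *Iyd*, the iodotyrosine deiodinase, had 6.

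None of 9 receptor partners and cofactors was 4-fold higher or lower in tanycyte-like cells, where the shares of all genes were 0.59% and 2.4%. *Ncor1*, a corepressor, was highest in OPC-like cells at 204 CPM, *Ncoa3*, a coactivator, in VLMC-like cells at 119 CPM, *Hdac3*, a histone deacetylase of the corepressor complex, in neuron-like cells at 99.0 CPM and *Med1*, a Mediator subunit that binds nuclear receptors, in OPC-like cells at 67.0 CPM. The 3 heterodimer partners of the receptors are named here after their values were seen. *Rxrg* was at 52.4 CPM (46.98 to 58.2) in neuron-like and 0.723 CPM (0.235 to 1.69) in tanycyte-like cells. In the mixed pars tuberalis-like cluster *Rxrg* was at 51.6 CPM. *Rxra* was at 38.0 CPM in ependymocyte-like and 26.6 in tanycyte-like cells, and *Rxrb* at 34.4 CPM in microglia-like and 20.4 in tanycyte-like cells. Of 9 genes known to respond to thyroid hormone, 1 was at least 4-fold higher in tanycyte-like cells (*Thrsp*) and 2 at least 4-fold lower (*Mbp* and *Nrgn*), against the same shares of all genes. Besides *Mbp*, *Klf9* reached 497 CPM in VLMC-like and 324 CPM in astrocyte-like cells, and *Dbp*, a clock output gene, 273 CPM in ependymocyte-like cells.

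In the TRH and thyrotropin list, *Cga* and *Tshb*, the subunits of thyrotropin, were highest in pars tuberalis-like cells at 17084 and 1021 CPM. Both were also on the marker list that named this type, so the naming favoured that result. *Trh* was highest in neuron-like cells at 57.2 CPM, with the mixed pars tuberalis-like cluster next at 49.7 CPM. *Pgpep1*, a cytosolic TRH-cleaving peptidase, was highest in astrocyte-like cells at 83.1 CPM. *Tshr*, the thyrotropin receptor, singled out after its values were seen, was at 33.9 CPM (29.7 to 38.5) in tanycyte-like cells. The mixed pars tuberalis-like cluster stood at 21.8 CPM (10.9 to 39.1), and no other type was above 12.01 CPM. Within tanycyte-like cells *Tshr* was highest in the *Dio3*-rich *Cpne5* cluster, at 67.7 CPM (53.5 to 84.5), and stood at 30.5, 22.4 and 23.3 CPM in the *Kctd14*, *Tgfb2* and beta-2-like clusters.

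**Figure D5:**
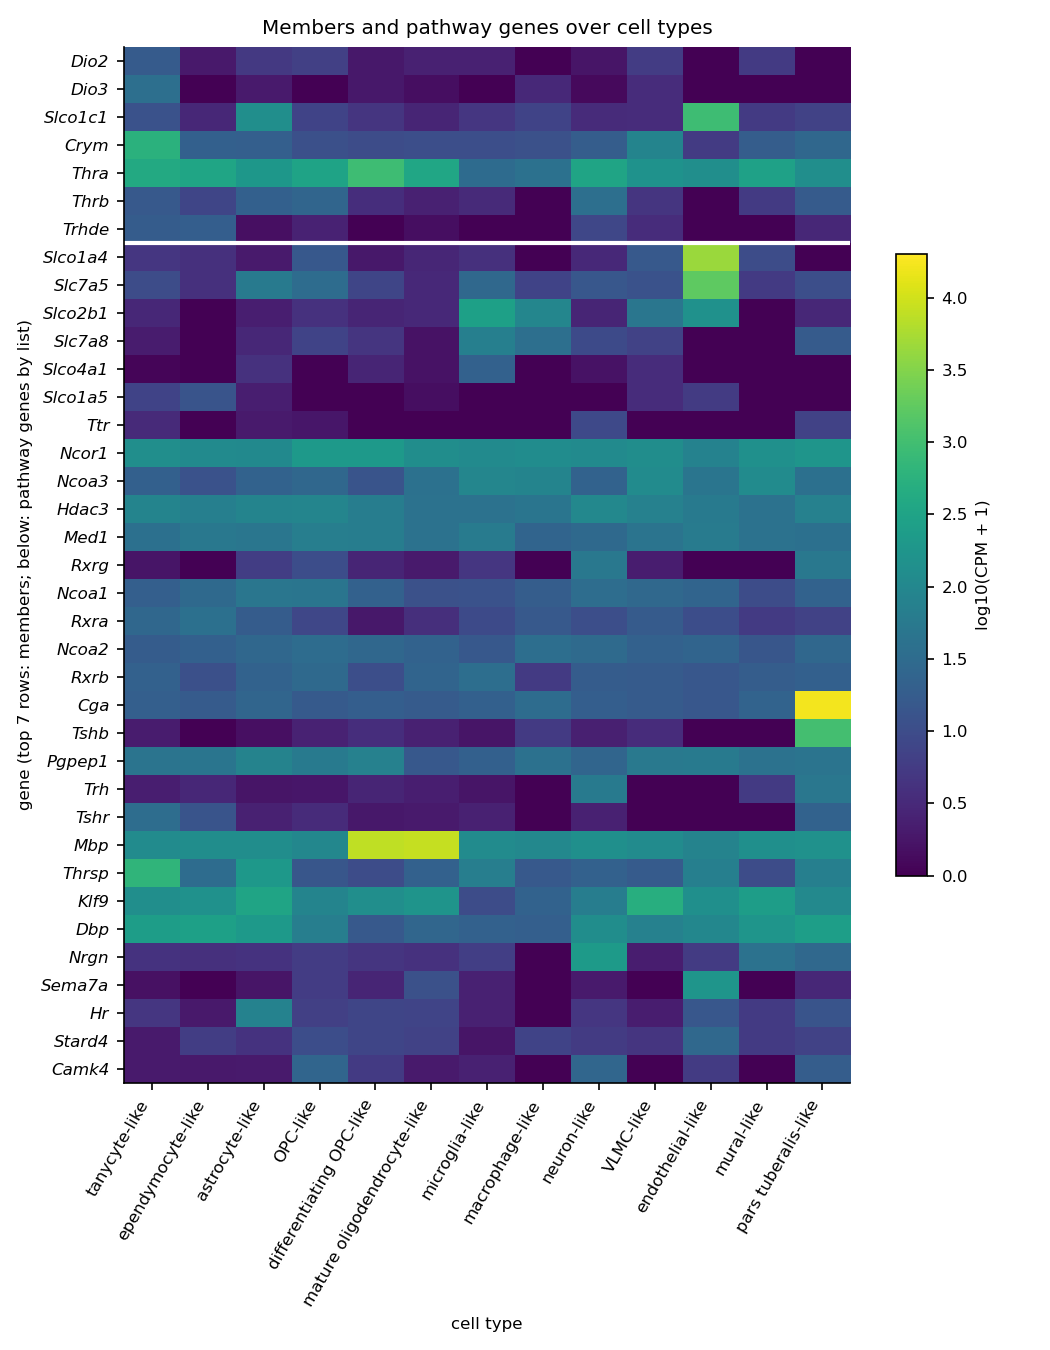
Colour shows log10(CPM + 1) of the 7 genes (top rows) and of the pathway genes with at least 50 UMIs (rows below the white line) over the 13 named cell types (columns). *Slco1a4*, *Slc7a5* and *Slco1c1* were brightest in endothelial-like cells, *Thrsp* and *Crym* in tanycyte-like cells, and most cofactors were spread over all types.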

How the data were processed

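Droplet RNA sequencing counts of ME cells were analysed. Per the labels and the methods of the study, the authors made 3′ libraries (10x v2), aligned reads to mm10 with Cell Ranger 2.0 and merged 4 libraries; the deposited matrix holds UMI counts, not normalised. The annotation release and use of strand are not given in the sources used here. The 32 sample records are parts of the 4 libraries. Matrix columns carry only the barcode numbers 1 to 4, so the authors' edgeR comparison of refed with fasted cells was not repeated, and 0 columns of per-sample values were left aside. Depth ran from 6508038 to 7806887 UMIs per barcode number.

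Counts were scaled to log values and clustered with scanpy 1.11.5 (2000 variable genes, 30 components, 15 neighbours, Leiden resolution 1, seed 0), giving 24 clusters. A cluster took the name of its best marker list at a score of at least 0.3 (the mean over the list's markers of the cluster's level relative to the highest cluster), 1.5 times the next, with at least 3 markers raised 4-fold over the median cluster. Outside the 13 types, 60 cells stayed unnamed, and 3 cells whose UMIs were 10% or more haemoglobin were removed. Scrublet (scikit-image 0.26.0) called 50 doublets, 0.836% of cells, which were kept. CPM intervals are exact Poisson and shares Clopper-Pearson at 95%. UMIs remove most PCR copies, but neither interval covers differences between animals. A count of 0 was bounded by 3 counts. Shares were compared after thinning each cell to 1000 UMIs; no cell had fewer. Ratios of tanycyte-like to other named cells used 10 CPM added to both sides.

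All 7 genes were described in full. Of the pathway lists, up to 4 genes per list with the highest CPM in any type were named, besides *Thrsp* and *Klf9*, and the 3 genes most like each member with at least 500 UMIs. The members, lists and markers were chosen with earlier results of these data known. Gene positions are from GENCODE on GRCm38 and promoters from RefSeq. Results for some listed genes and markers are not reported here. The alternatives tried were other resolutions, K-means, clustering without these genes, cell filters, doublets left out, thinning, 2 UMIs for a positive cell, other pseudocounts and each barcode number left out, and, chosen after seeing the data, cells with at least 5 *Dio3* UMIs left out.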

Additional observations from a re-analysis of the deposited data

How the results depend on the processing

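No paired analysis was possible because the matrix columns are not tied to libraries or conditions, and the planned fits of refed against fasted cells were not run for the same reason. Leaving out doublets, the stricter cell filter and a Leiden resolution of 0.5 moved none of the values computed for them (28, 12 and 12). At resolution 2, where part of the tanycyte-like cells lost their name, *Dio2* was at 19.9 CPM, *Dio3* and *Slco1c1* each at 5.96 CPM and *Crym* at 679 CPM in the rest. With K-means *Thra* in tanycyte-like cells was at 385 CPM, and K-means gave no separate diffOPC-like, neuron-like or endothelial-like cells. In thinned cells *Dio2*, *Crym*, *Thrb* and *Trhde* in tanycyte-like cells were at 9.79, 529, 11.6 and 13.5 CPM, and *Thra* in diffOPC-like cells at 853 CPM. Without the cells of at least 5 *Dio3* UMIs, a choice made after seeing the data, *Dio3* was at 12.5 CPM.

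Thinning and asking for 2 UMIs both lowered the shares of positive cells. In tanycyte-like cells, thinning gave 0.979% for *Dio2*, 2.02% for *Dio3*, 1.04% for *Slco1c1*, 30.5% for *Crym*, 33.7% for *Thra*, 1.16% for *Thrb* and 1.35% for *Trhde*, and asking for 2 UMIs gave 0.796, 2.02, 0.673, 39.3, 49.4, 0.367 and 0.796% in the same order. *Slco1c1* was then at 51.2% (thinned) and 53.6% (2 UMIs) of endothelial-like and 12.04% and 6.41% of astrocyte-like cells, *Thrb* at 3.15% and 11.4% of neuron-like cells, *Trhde* at 2.48% and 0.495% of ependymocyte-like cells, and *Thra* at 57.4% of diffOPC-like cells after thinning. Cells with 2 genes over the product of the shares were at 0 for *Dio2* with *Dio3* and for *Dio2* with *Trhde* after thinning, and at 5.29 for *Crym* with *Thrb* in neuron-like cells, from 1 cell. Without these genes in the clustering, 68.2% of the tanycyte *Dio2* UMIs fell in 1 cluster, which held 46.8% of tanycyte-like cells. With 1 CPM added, 286 genes and 4 of the 7 members passed the 4-fold ratio. Leaving out each barcode number gave 25.7 to 39.8 CPM for *Dio3*, the lowest without number 1, 528 to 596 CPM for *Crym* and a *Dio2* with *Dio3* ratio of 0 to 0.361. The cause of these moves was not tested.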

Other observations

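Further genes of the pathway differed among clusters of 1 type. *Trh* was at 76.4 CPM (68.8 to 84.5) in the neuron-like cluster led by *Sst*, *Gal* and *Tac2*, had no UMI in the cluster led by *Vip* and *Avp* and was at 1.75 CPM in the cluster led by *Agrp* and *Npy*. *Trhde*, whose product cleaves TRH, stood at 9.14, 3.68 and 0 CPM in the same clusters. *Thrsp* was at 820 CPM (788 to 852) in the *Kctd14* cluster of tanycyte-like cells and at 485 to 567 CPM in the other 3, and *Klf9* was at 92.8 CPM (76.1 to 112) in the *Dio3*-rich *Cpne5* cluster against 131 to 155 CPM in the other 3. These genes were counted in the cells that were clustered, and the differences were not tested.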
